A study of Homo sapiens with 40 samples.

Results

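The genes described here encode microtubule motors and the parts that attach them to cargo. They are the genes whose symbol starts with KIF and a digit (kinesin heavy chains), KLC (kinesin light chains), DYNC (dynein subunits), DCTN (dynactin subunits) or TRAK (adaptors of mitochondrial transport). Identifiers in 5 deposited tables of exon skipping were matched to symbols, and the rule reads the symbol alone. Of 16378 exon events under 6976 gene identifiers, 76 events in 34 genes were members, and these covered 70 distinct exons because some exons are listed with more than 1 pair of flanking exons. Symbols were found for 6848 of the identifiers. The reference holds 81 symbols that start in these ways, and those without an event here, among them KIF11, DYNC1H1, KIF5A and TRAK1, were not analysed.

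Kinesins mostly walk toward the plus ends of microtubules, and cytoplasmic dynein walks toward the minus ends with dynactin as its activator. Kinesin heavy chains fall into families that carry vesicles and organelles, that build and pull the mitotic spindle, or that shorten microtubules. Light chains and adaptors choose the cargo, and many motor genes carry small cassette exons that change a linker or tail, so splicing can alter what a motor binds without removing its motor domain.

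All cells were HEK293 Flp-in T-REx, derived from human embryonic kidney and built to carry an inducible transgene. Each line carried an α-amanitin-resistant Rpb1, the large subunit of RNA polymerase II, as WT or with R749H, H1106Y or E1126G. Every group, WT included, received doxycycline for 12 to 16 h to switch the transgene on, then 42 h of α-amanitin, which inhibits the cells' own polymerase. R749H and H1106Y are known as slow polymerases and E1126G as a fast one. WT, R749H and E1126G were each sequenced by RNA-seq in 2 libraries. RASL-seq, in which probes that meet at a preselected splice junction are ligated and counted, covered all 4 genotypes with 3 libraries apiece. The labels call the RNA-seq samples biological replicates but do not say whether a line is 1 clone or whether libraries came from separate cultures, so a p-value may measure technical spread. The tables hold 1 splicing ratio per group and no expression level, so neither the cell line nor the transgene could be checked against marker genes, and no library has a value of its own.

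Inclusion below is the share of inclusion reads among inclusion and exclusion reads, in percent. It was computed from the authors' deposited tables, as were all log2 changes of the inclusion ratio. An event was called when its deposited p-value, adjusted by the Benjamini-Hochberg method over its whole table, was under 0.05. All mutants of an assay were compared with the same WT libraries, and differences between mutants, or between assays, were not tested. Coordinates are those of the tables, in GRCh37 and 1-based.

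The clearest changes were losses of small cassette exons in kinesin genes and of 1 exon in the adaptor TRAK2. In RNA-seq an exon of TRAK2 went from mostly included to mostly skipped in R749H, and a 27-nt exon of KIF1A was mostly lost in both R749H and E1126G. A 42-nt exon of KIF23 fell in E1126G on both assays, and a 42-nt exon of KIF1B fell in H1106Y and E1126G on RASL-seq. Called gains were fewer than losses in H1106Y and E1126G, where all events were also called lower more often than higher. In R749H called gains and losses were close in number on both assays. The gains included a 312-nt exon of KIF23 in both RNA-seq mutants. A 131-nt exon of KLC1 rose in E1126G on RNA-seq with 1 pair of flanking exons. The largest called gain was at a small exon, the 21-nt exon of KIF21A in R749H on RNA-seq, from 18.3% to 43.1%. That exon fell in all 3 mutants on RASL-seq. Dynein and dynactin exons moved by less than 3 percentage points wherever they were called.

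As a set the members were called at about the rate of all exons in RNA-seq. In R749H, 9 of 69 member events were called, or 13%, against 15.1% of the 14358 events tested. Of these 4 were higher and 5 lower, against 7.07% and 8.04% of all events, and at a threshold of 0.01 or under the Benjamini-Yekutieli adjustment the split turned to 4 higher and 2 lower. In E1126G, 6 of 66 were called, or 9.09%, against 6.48% of 14650, with 2 higher (2.20% of all events) and 4 lower (4.27%). The median log2 change of the members was 0.22 in R749H and -0.35 in E1126G, while over all events it was -0.0048 and -0.08.

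RASL-seq called far more events in general, and the members have to be read against that. In R749H it called 4 of 16 member events, 2 in each direction, against 44.1% of 2248 events (24.0% higher and 20.1% lower). In H1106Y it called 12 of 14, with 3 higher and 9 lower, against 61.9% of 2070 (23.7% and 38.2%). In E1126G it called 10 of 16, with 1 higher and 9 lower, against 47.5% of 2312 (13.9% and 33.6%). The members' median log2 changes were -0.29, -1.68 and -1.20 in that order, beside 0.05, -0.33 and -0.37 over all events. These counts include 10 calls of less than 1 percentage point, on probes whose WT inclusion was close to 0 or 100%, and the 2 DYNC1I2 events with the same flanks hold the same values. The medians include these events too. WT inclusion was 5% to 95% in 50% of member events in R749H, 42.9% in H1106Y and 43.8% in E1126G. Over all events these shares were 62.8%, 63.1% and 61.1%.

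Over the 5 comparisons 41 calls were made, 29 lower and 12 higher, on 24 events in 13 genes. The other 52 events were called in no comparison, and 21 genes had none called. The matching shares over all events and genes were not computed, so these totals do not show a trait of motor genes. Comparisons of 1 assay share their WT libraries, so their calls are not independent. All events were also called lower more often than higher in every comparison except R749H on RASL-seq, by the shares given above. The 41 calls include the 10 under 1 percentage point and both of the DYNC1I2 events with identical values.

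KIF1A (ENSG00000130294), a kinesin-3 that carries synaptic vesicle precursors, lost a 27-nt exon (chromosome 2, 241674136 to 241674162, minus strand). Its inclusion was 41.6% in WT, 11% in R749H and 13.4% in E1126G by the authors' deposited RNA-seq tables. Both changes were called, with log2 changes of -2.52 (adjusted p = 5.1e-09) and -2.20 (adjusted p = 1.6e-06). The slow and the fast mutant therefore stood on the same side of WT for this exon. A second KIF1A exon of 276 nt was at 18.2% in WT, 14.2% in R749H and 15.0% in E1126G, and was not called. RASL-seq had no row for either exon.

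KIF1B (ENSG00000054523), a kinesin-3 that moves mitochondria and synaptic vesicle precursors, was measured at a 42-nt exon on RASL-seq (chromosome 1, 10339155 to 10339196, plus strand). The authors' deposited tables put it at 96.2% in WT, 50% in H1106Y and 76.5% in E1126G. These were decreases with log2 changes of -4.68 (adjusted p = 8.1e-04) and -2.98 (adjusted p = 7.7e-04). The R749H table holds no row for it, so that only a slow and a fast mutant can be set side by side. With read depth unknown, the levels of this exon may rest on few reads. The 249-nt exon of KIF1B on RNA-seq was at 21.4% in WT, 24.4% in R749H and 37.5% in E1126G, with no call.

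KIF13A (ENSG00000137177), a kinesin-3 of recycling endosomes, has a 39-nt exon that was tested in all 5 comparisons (chromosome 6, 17790103 to 17790141, minus strand). On RNA-seq it stood at 85.5% in WT, 60% in R749H and 36.8% in E1126G by the authors' deposited tables. The fall in E1126G was called (log2 change -3.34, adjusted p = 0.011), and the R749H value was not (adjusted p = 0.11). On RASL-seq the WT level was 44.3%, with 39.8% in R749H, 13.3% in H1106Y and 33.5% in E1126G, and H1106Y was the called decrease (adjusted p = 0.0041). All 5 mutant values lay below their WT, with differences from -48.7 to -4.4 percentage points. Under the stricter Benjamini-Yekutieli adjustment the RNA-seq call was lost. With read depth unknown, the RNA-seq levels of this gene may rest on few reads. A 105-nt exon of the same gene also lay below WT in its 4 comparisons, at 23.5% and 33.3% against 53.5% on RNA-seq for R749H and E1126G, with no call (adjusted p = 0.085 and 0.57).

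KIF13B (ENSG00000197892), a paralog of KIF13A that binds the scaffold DLG1, gave different directions on the assays at a 63-nt exon (chromosome 8, 28932798 to 28932860, minus strand). RASL-seq rose from 66.7% in WT to 81.4% in R749H (adjusted p = 0.045) and to 82.7% in H1106Y (adjusted p = 0.026) by the authors' deposited tables. E1126G was at 53.8% there, below WT and not called. On RNA-seq the same exon was at 74% in WT, 45.5% in R749H and 33.3% in E1126G, neither called (adjusted p = 0.086 and 0.052). For R749H the values thus lay above WT on 1 assay and below it on the other. Read depth is unknown, and the RNA-seq levels of this exon may rest on few reads. Both RASL-seq calls were lost under the Benjamini-Yekutieli adjustment, and E1126G on RNA-seq was called when only events with a WT inclusion of 5% to 95% were tested.

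KIF21A (ENSG00000139116), a kinesin-4 that restrains microtubule growth at the cell cortex, had 3 called exons, each of 39 nt or less. The 21-nt exon (chromosome 12, 39724044 to 39724064, minus strand) was called in 4 of its 5 comparisons. On RASL-seq it fell from 34.6% to 19.7% in R749H, 14.1% in H1106Y and 16.9% in E1126G, with adjusted p-values of 3.7e-09, 6.2e-19 and 9.9e-21 from the authors' deposited p-values. In RNA-seq the authors' deposited table has it rising from 18.3% to 43.1% in R749H (log2 change 1.76, adjusted p = 0.0046), while E1126G stood at 21% (adjusted p = 0.91). So R749H had called changes of opposite sign at 1 exon on the 2 assays, and this difference was not tested.

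A 39-nt exon of KIF21A (39709734 to 39709772) fell in RNA-seq from 20.7% to 2.82% in R749H (adjusted p = 0.012) by the authors' deposited table. In E1126G it was at 5.7%, which was not called. The other 39-nt exon (39740268 to 39740306) was little included throughout. Its RNA-seq levels were 12.4% in WT, 3.3% in R749H and 1.72% in E1126G without a call, and on RASL-seq 3.94% in WT changed to 6.49% in H1106Y (adjusted p = 1.9e-05) and 2.96% in E1126G (adjusted p = 0.0018) by the authors' deposited tables. The larger of these called changes was 2.6 percentage points. Relative to the median of its table the E1126G log2 change of this exon went from -0.42 to -0.05. A 129-nt KIF21A exon was at 44.4% in WT, 46.5% in R749H and 36.7% in E1126G on RNA-seq. With a shorter stretch between its flanking exons it was at 80% in WT and 96% in R749H (adjusted p = 0.27). No row of this exon was called.

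Of the other kinesins outside the mitotic group, KIF3A, KIF5B, KIF9, KIF16B and KIF21B had no call. The 9-nt exon of KIF3A, a kinesin-2 of cilia and axons, was the shortest of all member exons and read 88.8% in WT, 96.6% in R749H and 88.2% in E1126G by the authors' deposited tables. A 246-nt exon of KIF9 was at 24.2% in WT and 4.5% in E1126G (adjusted p = 0.092), levels that may rest on few reads. KIF5B, a kinesin-1 heavy chain, was included at 98.0% to 99.4% in all 3 genotypes. KIF27, related to the ciliary kinesin KIF7, had 1 event, an exon of 959 nt at 53.3% in R749H, 13.3 percentage points above WT and not called.

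**Figure D1:**
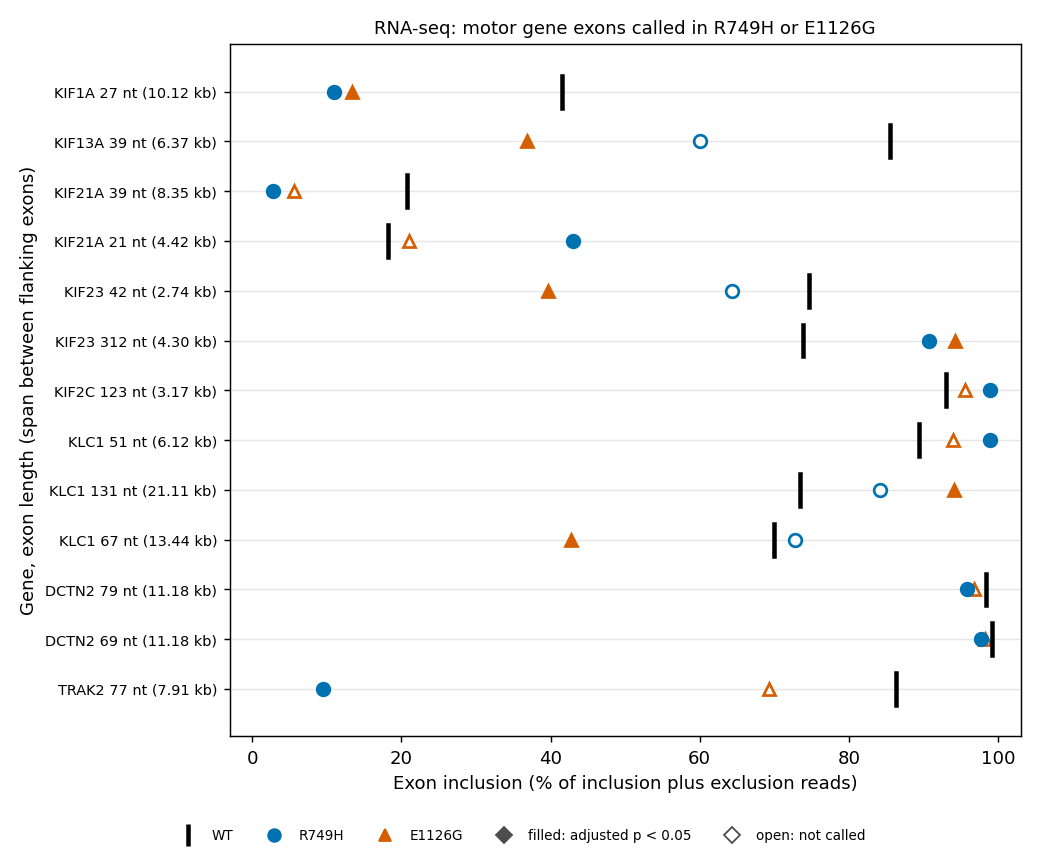
Exon inclusion on RNA-seq in percent (horizontal axis) for each motor gene event called in R749H or E1126G (rows, named by gene, exon length and distance between the flanking exons). Black bars are WT, circles R749H and triangles E1126G, filled where called and open where not, each a group value without an error. The TRAK2 exon is at 9.52% in R749H and 69.2% in E1126G, and both mutants lie left of WT for the 27-nt KIF1A exon and right of it for the 312-nt KIF23 exon.

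Among mitotic kinesins, KIF23 changed most. KIF23, also called MKLP1, bundles microtubules of the central spindle and is needed for cytokinesis. Its 42-nt exon (chromosome 15, 69717621 to 69717662, plus strand) fell in E1126G from 74.7% to 39.6% on RNA-seq (log2 change -2.17, adjusted p = 3.5e-09) and from 87.1% to 72.3% on RASL-seq (log2 change -1.38, adjusted p = 3.3e-36), by the authors' deposited tables. H1106Y also lowered it, to 68% (adjusted p = 8.9e-24). R749H did not pass on either assay, with 64.3% on RNA-seq (adjusted p = 0.11) and 87.2% on RASL-seq (adjusted p = 0.98). The fast mutant therefore had a called decrease on both assays, beside the called decrease of 1 slow mutant.

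The 312-nt exon of KIF23 (69733107 to 69733418) went the other way. The authors' deposited RNA-seq tables give 73.8% in WT, 90.7% in R749H (log2 change 1.80, adjusted p = 4.5e-06) and 94.2% in E1126G (log2 change 2.53, adjusted p = 5.0e-10). In 1 gene, then, E1126G lowered a short exon and raised a long one. The other 3 KIF23 events, of 79, 82 and 137 nt, were above 96% in WT and were not called.

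KIF15 (ENSG00000163808), which helps keep the spindle bipolar, had a 43-nt exon at 96.5% in WT on RASL-seq (chromosome 3, 44815887 to 44815929, plus strand). It fell to 83.7% in H1106Y (log2 change -2.42, adjusted p = 7.1e-15) and to 90.8% in E1126G (log2 change -1.48, adjusted p = 3.3e-10) by the authors' deposited tables, while R749H stood at 94.6% (adjusted p = 0.065). RNA-seq levels were 96.9% in WT, 97.3% in R749H and 93.9% in E1126G, with no call.

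KIF2A and KIF2C are kinesin-13 proteins, which depolymerise microtubules rather than walk on them. The 114-nt exon of KIF2A (chromosome 5, 61668265 to 61668378, plus strand) was at 10.4% in WT on RNA-seq, 13.8% in R749H and 12.9% in E1126G, and not called. On RASL-seq the authors' deposited tables put it at 0.21% in WT, 0.0537% in R749H, 0.0695% in H1106Y and 0.0125% in E1126G, and all 3 decreases were called (adjusted p = 2.4e-04, 0.0051 and 2.9e-11). The largest, a log2 change of -4.08, was a difference of -0.20 percentage points, and the WT level differed between the assays. A 203-nt KIF2A exon was called higher in E1126G on RASL-seq, from 0.139% to 0.33% (adjusted p = 0.035). For KIF2C, a 123-nt exon (chromosome 1, 45218804 to 45218926, plus strand) rose in R749H from 93% to 98.9% on RNA-seq (log2 change 2.71, adjusted p = 7.0e-06) by the authors' deposited table.

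KIF18A (ENSG00000121621), KIF18B, KIF20A and KIF22, which act in chromosome alignment and cytokinesis, had no call. Together with the uncalled events of KIF23, their log2 changes ran from -1.21 to 1.95. These exons were included at over 96% in WT, and their inclusion differed from WT by -3.7 to 1.7 percentage points.

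**Figure D2:**
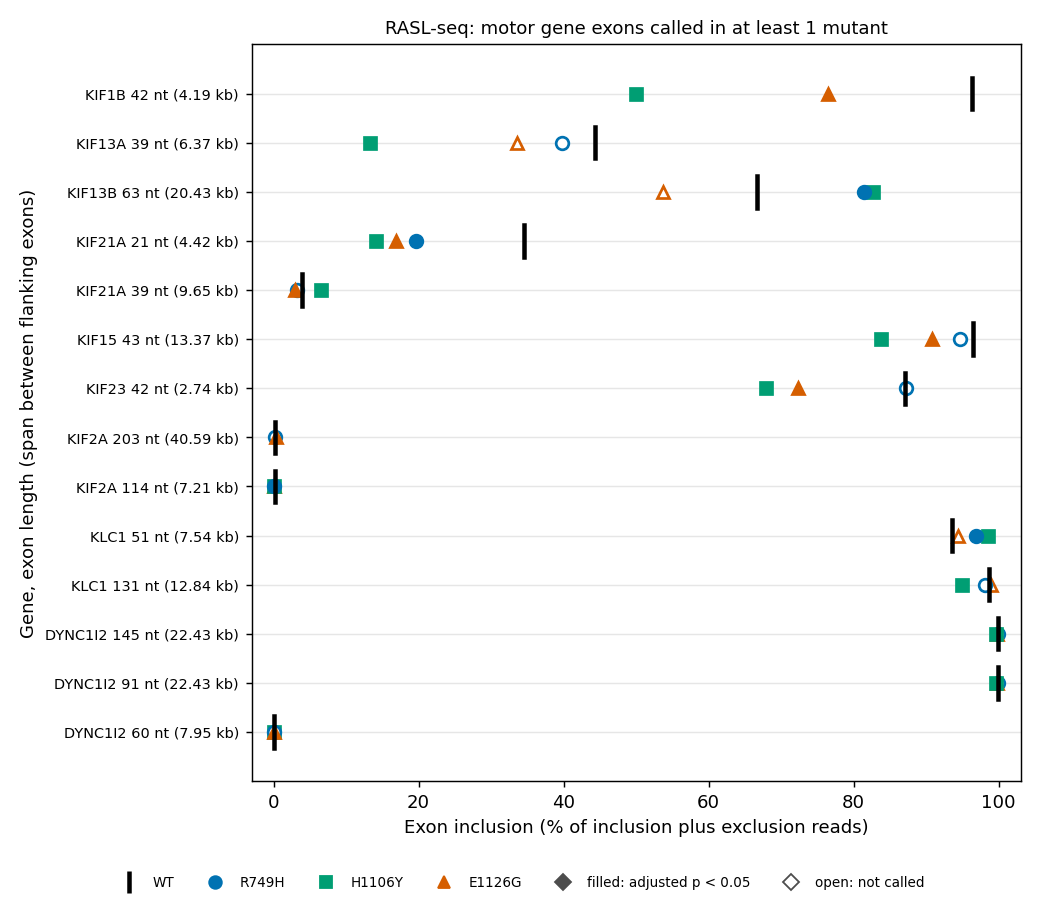
Exon inclusion on RASL-seq in percent (horizontal axis) for each motor gene event called in at least 1 mutant (rows as gene, exon length and span). Black bars are WT, circles R749H, squares H1106Y and triangles E1126G, filled where called, each a group value without an error. The 42-nt KIF1B exon is at 50% in H1106Y against 96.2% in WT, while the KIF2A and DYNC1I2 events sit at the edges of the axis, where called changes were under 1 percentage point.

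KLC1 (ENSG00000126214), a kinesin light chain that ties the kinesin-1 heavy chain to cargo, was listed with 9 events over 4 exons, between 104145856 and 104166991 on the plus strand of chromosome 14. The same exon can differ in level between events, because each pair of flanking exons counts other junctions. The 51-nt exon (104151323 to 104151373) has 3 such events. Between flanking exons that enclose 104145856 to 104151974 it rose in R749H from 89.4% to 99% on RNA-seq (log2 change 3.50, adjusted p = 0.0027) by the authors' deposited table. When the enclosed stretch began instead at 104145883, it was at 96.3% in WT and 89.0% in R749H and not called, and these rows appear a second time under ENSG00000256500. With the longest stretch, to 104153417, RASL-seq rose from 93.6% to 96.8% in R749H (adjusted p = 3.5e-05) and to 98.5% in H1106Y (adjusted p = 9.2e-19), with 94.4% in E1126G, all by the authors' deposited tables. The RNA-seq values of that event were 54.5% in WT, 65.2% in R749H and 31.9% in E1126G, with no call.

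The 131-nt exon of KLC1 (104153418 to 104153548) rose in E1126G from 73.4% to 94.1% on RNA-seq in its event from 104145883 to 104166991 (log2 change 2.54, adjusted p = 2.3e-04), where R749H stood at 84.1%. Its RNA-seq events with the 3 other pairs of flanks were not called, with WT levels of 66.7%, 96.4% and 98.3%. The next exon, of 67 nt (104158696 to 104158762), fell in E1126G from 70% to 42.8% (log2 change -1.64, adjusted p = 0.0035), with 72.8% in R749H, by the authors' deposited tables. On RASL-seq the 131-nt exon fell in H1106Y from 98.6% to 95% (adjusted p = 0.0042), and was at 98.1% in R749H and 98.9% in E1126G. In E1126G the 2 neighbouring exons of KLC1 thus moved in opposite directions, and since their junctions overlap they are not independent measurements. The single KLC4 exon, of 71 nt, was at 98.0% in WT, 99.6% in R749H and 98.9% in E1126G.

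Dynein subunits gave 14 events in 7 genes, and only events of DYNC1I2 were called. DYNC1I2 encodes an intermediate chain, the part of cytoplasmic dynein that binds dynactin. Its 145-nt and 91-nt exon forms, which share an end at 172563887 on chromosome 2, hold identical RASL-seq values. They read 99.92% in WT, 99.68% in H1106Y (adjusted p = 0.0022) and 99.74% in E1126G (adjusted p = 8.2e-05), called differences of -0.24 and -0.18 percentage points by the authors' deposited tables. R749H differed from WT by 0.018 points (adjusted p = 0.68). The 60-nt exon of this gene was at 0.124% in WT and 0.0513% in E1126G on RASL-seq (adjusted p = 0.04), and at 1.1% in WT on RNA-seq with no call. A 60-nt exon of DYNC1I1, its paralog, read 23.2% in WT, 23.3% in R749H and 30.6% in H1106Y on RASL-seq, with no call. DYNC2H1, DYNC2I1, DYNC2I2 and DYNC2LI1 form the dynein of cilia, and neither their exons nor that of DYNC1LI1 were called, and the dynein events never called differed from WT by -2.4 to 7.3 percentage points.

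Dynactin subunits had 18 events in 5 genes, all from RNA-seq. The called pair belonged to DCTN2, the p50 dynamitin subunit, at overlapping forms of 1 exon that end at 57939879 on chromosome 12. In R749H the 79-nt form fell from 98.4% to 95.8% and the 69-nt form from 99.1% to 97.8% (adjusted p = 0.037 for each) by the authors' deposited table, and the forms count shared reads. DCTN1, whose product p150Glued holds the microtubule, had 4 uncalled events. DCTN3 was at 98.0% in WT and 95.9% in both mutants for its 84-nt form (adjusted p = 0.069 in R749H and 0.094 in E1126G). A 44-nt exon of DCTN4 stood at 99.2% in WT and 95.9% in E1126G (adjusted p = 0.082). Over the 16 dynactin events that were never called the inclusion differed from WT by -7.0 to 5.8 percentage points.

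TRAK2 (ENSG00000115993), which links kinesin-1 to mitochondria through the Miro proteins, had the largest change of all members. Its 77-nt exon (chromosome 2, 202265741 to 202265817, minus strand) fell from 86.4% to 9.52% in R749H, a difference of -76.8 percentage points with a log2 change of -5.91 (adjusted p = 1.5e-06) by the authors' deposited RNA-seq table. E1126G stood at 69.2%, with a log2 change of -1.49 that was not called (adjusted p = 0.59). The exon had no RASL-seq row, so this change rests on 1 assay. Read depth is unknown, and these percentages may rest on few reads. A length of 77 nt is not a multiple of 3.

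Exons measured on both assays allow a check that uses separate libraries. With the same exon and the same flanks, 12 member events had rows in both RNA-seq and RASL-seq. Their WT inclusion lay within 5 percentage points of each other in 4 events and more than 20 points apart in 3. The RASL-seq level minus the RNA-seq level ran from -45.7 points for the 105-nt KIF13A exon to 39.1 points for the 51-nt KLC1 exon, so mutants were compared with WT within an assay. The 42-nt KIF23 exon in E1126G was called lower on both assays, and the 21-nt KIF21A exon in R749H was called with opposite signs. No other event was called on both assays in the same mutant. In E1126G, 6 of the 11 events with both values lay below WT on both assays, 1 above on both and 4 on opposite sides. These 6 were the KIF13A exons of 39 and 105 nt and the exons of KIF13B, KIF15, KIF21A (39 nt) and KIF23. In R749H, 3 of 12 lay below WT on both, 1 above on both and 8 on opposite sides. The 8 include the 42-nt KIF23 exon, whose RASL-seq log2 change was 0.01. Over all events, E1126G lay below 0 in 7770 of 14650 on RNA-seq and in 1470 of 2312 on RASL-seq. Shares on the same or opposite sides were not computed over all events, so these counts do not show a trait of motor genes.

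**Figure D3:**
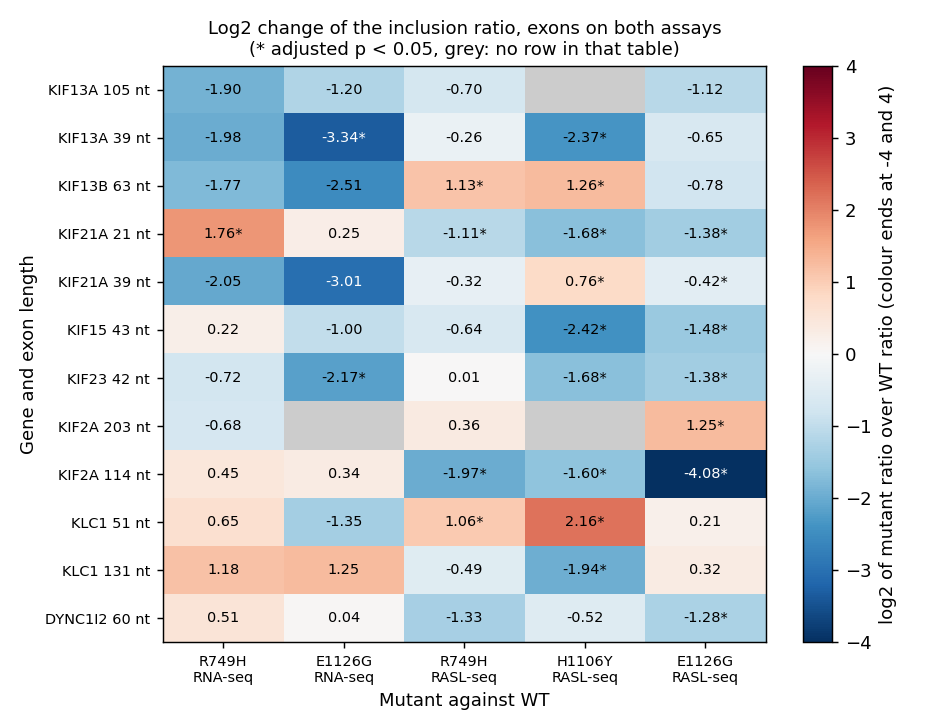
Log2 change of the inclusion ratio against WT (colour and printed value) for the 12 motor gene events with rows on both assays (rows, gene and exon length) in each of the 5 comparisons (columns). Asterisks mark an adjusted p under 0.05 and grey cells have no row. The 21-nt KIF21A row holds 1.76 in R749H on RNA-seq and -1.11 in R749H on RASL-seq, and the 42-nt KIF23 row holds -2.17 and -1.38 in E1126G.

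Short exons made up a larger share of the members' exons than of all exons. Of the 70 exons 11 had 42 nt or less, or 15.7%, against 6.14% of the 15189 exons in the 5 tables, and the median length was 83 nt against 109 nt. In E1126G on RNA-seq 8 of the 9 member events of this size had a log2 change below 0, against 64.6% of the 888 such events in the table, and their median log2 change was -2.12 against -0.35. In R749H 6 of 9 were below 0, against 62.7% of 859, with medians of -0.72 and -0.39. All 3 called short member events of E1126G were lower, and of those in R749H 2 were lower and 1, the 21-nt KIF21A exon, was higher. Among all short events, 91 of the 106 called in E1126G were lower, and 119 of the 157 called in R749H. Of the longer member events 20 of 60 were below 0 in R749H and 33 of 57 in E1126G. Short exons of the whole tables were also below 0 more often than longer ones, at 62.7% against 49.4% in R749H and 64.6% against 52.3% in E1126G, so that the members are read beside that pattern. On RASL-seq the short and the longer member events had similar medians in E1126G and H1106Y. The longer ones include the KIF2A and DYNC1I2 events, whose called changes were under 1 percentage point. The median log2 change of the short and the longer member events was -1.02 and -1.20 in E1126G, -1.68 and -1.60 in H1106Y, and -0.32 and 0.00 in R749H. Over all events these medians were -0.74 and -0.33 in E1126G, -0.72 and -0.31 in H1106Y, and -0.23 and 0.10 in R749H. In E1126G 6 of 6 short and 7 of 10 longer member events lay below 0, against 77% of 222 and 62.2% of 2090 over all events. The limit of 42 nt was chosen after the values were seen.

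Of the 22 member exons with a call in any comparison, 14 had a length that is a multiple of 3 (63.6%), against 22 of the 48 exons never called (45.8%) and 43.8% of all exons in the tables. The called exons of KIF1A and KIF1B, those of KIF13A and KIF13B, the 3 of KIF21A and both of KIF23 were among the 14. The 77-nt exon of TRAK2, the 43-nt exon of KIF15 and the 131-nt and 67-nt exons of KLC1 were not. The share over all called exons of the series was not computed, so these values do not show a trait of motor genes. Overlapping forms of 1 exon were counted apart, those of DYNC1I2 (91 and 145 nt) and of DCTN2 (69 and 79 nt). Whether an exon lies in coding sequence was not checked here.

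**Figure D4:**
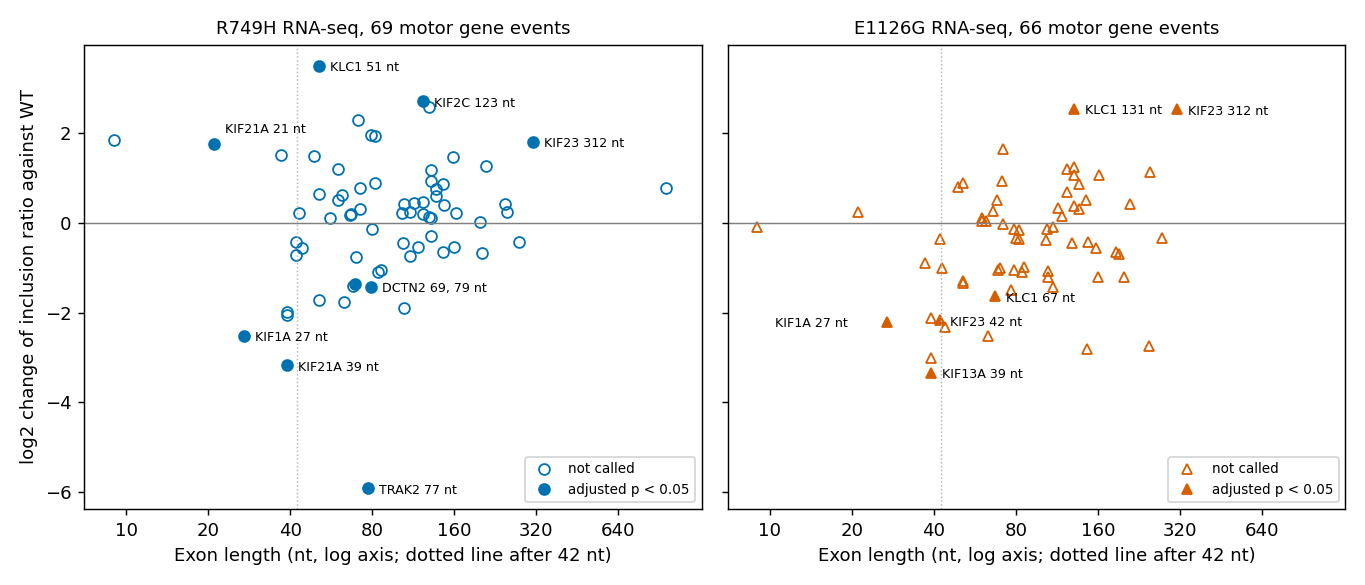
Log2 change of the inclusion ratio against WT on RNA-seq (vertical axis) by exon length in nt (horizontal log axis) for the 69 motor gene events of R749H (left, circles) and the 66 of E1126G (right, triangles), filled where called. Left of the dotted line, after 42 nt, 6 of 9 events in R749H and 8 of 9 in E1126G lie below 0, and the 77-nt TRAK2 exon is the lowest point at -5.91.

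Other genes of the motor pathway, from a list of 67 that regulate, anchor or guide these motors, were called at shares near or below those of all events, and mostly lower. In RNA-seq 10 of 70 events were called in R749H (14.3%, against 15.1% of all events), 9 of them lower. Of all events in that comparison 8.04% were lower and 7.07% higher. In E1126G 5 of 67 were called (7.46%, against 6.48%), all lower, where 4.27% of all events were lower and 2.20% higher. RASL-seq called 9 of 20 in R749H (45%, against 44.1%), 8 of them lower, where 20.1% of all events were lower and 24.0% higher. It called 9 of 19 in H1106Y (47.4%, against 61.9%), 7 of them lower, and 8 of 19 in E1126G (42.1%, against 47.5%), all lower. In these last 2 tables all events leaned lower too, with 38.2% lower and 23.7% higher in H1106Y and 33.6% and 13.9% in E1126G. SPAG9, the JIP4 scaffold that binds kinesin-1 and dynactin, lost a 39-nt exon. RNA-seq gave 32.1% in WT, 2.8% in R749H and 2.7% in E1126G (adjusted p = 9.9e-09 and 1.8e-08). On RASL-seq its WT level of 14.0% fell in every mutant, with R749H at 5.5%, H1106Y at 4.0% and E1126G at 3.2%, by the authors' deposited tables. A 35-nt exon of NDEL1, a dynein regulator, fell from 55.1% to 27.6% in R749H and 23.4% in E1126G on RNA-seq by the authors' deposited tables. On RASL-seq it was at 90.3% in WT and called lower in H1106Y, at 76.1%, and in E1126G, at 79.1%.

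RHOT1 encodes Miro1, the mitochondrial partner of the TRAK adaptors. Its 96-nt exon fell in R749H from 57.6% to 23.8% on RNA-seq (adjusted p = 9.3e-06) and from 25.0% to 5.9% on RASL-seq (adjusted p = 0.0048), by the authors' deposited tables. A second RASL-seq event of this RHOT1 exon, at 0.5% in WT, fell to 0.1% in R749H (adjusted p = 0.011) and rose to 2.0% in H1106Y (log2 change 2.07, adjusted p = 8.5e-04). A 60-nt exon of PLEKHM2, which recruits kinesin-1 to lysosomes, fell in R749H from 70.4% to 36.2% on RNA-seq, and on RASL-seq its 92.7% in WT fell in all 3 mutants, with R749H at 80.3%, H1106Y at 73.2% and E1126G at 84.9%. The 1 increase in R749H RNA-seq was a 6-nt exon of HOOK2, a dynein adaptor, from 23.8% to 73.5% (adjusted p = 1.0e-04) by the authors' deposited table. On RNA-seq RHOT2 had 2 called exons in E1126G, which fell from 96.3% to 88.3% and from 98.5% to 93.2%. The second of them was also called lower in R749H, at 94.1% (adjusted p = 0.0014). Among microtubule-associated proteins, an 87-nt exon of MAPT (tau) fell from 64.0% to 30.2% in R749H on RNA-seq and from 33.9% to 15.3% in E1126G on RASL-seq. A 93-nt exon of MAP2 fell from 55.8% to 32.4% in R749H and 11.8% in H1106Y on RASL-seq, and a 105-nt exon of CLIP1, a plus-end protein, was lower there too, with 19.5% in WT, 10.0% in R749H, 7.5% in H1106Y and 10.2% in E1126G by the authors' deposited tables.

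Retained introns carry no gene name in the deposited tables. The R749H and E1126G tables from RNA-seq each had 6 introns that lay inside the outermost coordinates of a member's exon events on its strand, in DCTN1, DCTN2 and DCTN3. None passed the adjusted threshold, where 18.9% of 2605 introns passed in R749H and 9.18% of 2615 in E1126G. At an unadjusted deposited p under 0.05 the counts were 1 and 3. The lowest adjusted p belonged to a 596-nt intron of DCTN1 (chromosome 2, 74595259 to 74595854), retained at 5.9% in WT, 13.1% in R749H (adjusted p = 0.071) and 14.1% in E1126G (adjusted p = 0.057) by the authors' deposited tables.

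RefSeq lists antisense genes named for DCTN1, KIF9, KIF23 and KLC4. The sources do not say whether the counting of junction reads used strand, so reads of such pairs may be mixed. Because no library has its own value, a change that rests on 1 library could not be looked for.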

How the data were processed

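RNA-seq and RASL-seq of 4 Rpb1 genotypes were deposited as 7 tables of the authors' own mutant against WT comparisons, with no value per library. Per the file headers, each row holds a natural log WT ratio, a log2 fold change of that ratio and a p-value deposited without adjustment. Per the labels' protocols RNA-seq reads were mapped with Tophat 1.4.1. The submitters' processing notes also name Bowtie 0.12.7, edgeR 3.7.17 and GRCh37, with no role for each tool. No source used here names the test behind the deposited p-value.

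The log bases were read from the numbers. Between 62.9% and 94.4% of WT ratios equalled a fraction of whole numbers (denominators to 300, tolerance 1e-09) under the natural log, and 0.396% or fewer under base 2. Mutant ratios did so in 63.5% to 95.2% of events when log2 meant mutant over WT, and in 22.5% or fewer with the sign turned. Tables coded C4 were read as R749H, since the labels of those samples list them.

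Inclusion was computed as 100 times the ratio over 1 plus the ratio. The Benjamini-Hochberg adjustment ran over every event of a table, with a threshold of 0.05, in Python 3.11.15 with numpy 2.4.6 and pandas 2.3.3, and the step was tested on simulated data. Depth is unknown, so no interval or standard deviation is given. The gene lists and members were chosen with earlier results of these data known. Events named in full were called in 1 comparison with a change of at least 20 points, called in at least 2, or tested in all 5 exon tables. The pathway list outside the rule was named by the 4 largest called changes per comparison. The limit of 42 nt for short exons was chosen after the values were seen. Alternatives covered the threshold (0.01, 0.1), the Benjamini-Yekutieli adjustment, WT inclusion of 5% to 95% alone, each position counted once, a minimum of 10 points and direction around the table's median. The 16 GRO-seq libraries were not analysed here.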

Additional observations from a re-analysis of the deposited data

How the results depend on the processing

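No paired analysis was possible because the deposited tables hold no value per library, and for the same reason no replicate could be left out and the depth is unknown. Counts of called motor gene events, in total, higher and lower, kept within 1.5 times under each setting not named here. With a minimum of 10 points they fell to 5 (2 higher, 3 lower) in R749H and stayed at 6 in E1126G on RNA-seq, and on RASL-seq were 2 (1 higher, 1 lower) in R749H, 6 (1 higher, 5 lower) in H1106Y and 3 (0 higher) in E1126G. With WT inclusion of 5% to 95% alone, RASL-seq counts were 3 in R749H (2 higher, 1 lower), 5 in H1106Y (2 higher, 3 lower) and 2 in E1126G (0 higher), and R749H on RNA-seq had 7 (4 higher, 3 lower). At a threshold of 0.1, E1126G on RNA-seq had 11 (2 higher, 9 lower), R749H on RNA-seq 12 (4 higher, 8 lower) and R749H on RASL-seq 6 (2 higher, 4 lower). At 0.01, and under Benjamini-Yekutieli, R749H on RNA-seq had 6 (4 higher, 2 lower), against 4 higher and 5 lower at 0.05, and the higher calls on RASL-seq were 1 in R749H and 0 in E1126G. Direction around the table's median changed no split. The minimum and the smaller set of events each leave fewer events that can be called. Of 35 calls of events named in full, 4 were lost under Benjamini-Yekutieli (KIF13A in E1126G on RNA-seq, KIF13B in R749H and H1106Y and the 60-nt DYNC1I2 exon in E1126G on RASL-seq), and none changed sign around the median, although the 39-nt KIF21A exon in E1126G on RASL-seq shrank from -0.42 to -0.05. The uncalled 42-nt KIF23 exon in R749H on RASL-seq turned from 0.01 to -0.04 around the median.

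For pathway genes outside the rule, a minimum of 10 points gave 2 in E1126G on RNA-seq and on RASL-seq 3 in R749H, 5 in H1106Y and 3 in E1126G, with 0 higher in R749H and H1106Y. WT inclusion of 5% to 95% alone gave 2 in E1126G on RNA-seq, and 0 higher in R749H and H1106Y on RASL-seq. R749H on RASL-seq had 5 (0 higher) at 0.01 and under Benjamini-Yekutieli, and on RNA-seq 2 higher at 0.1. Of introns, 1, with more retention, was called at 0.1 in each of R749H and E1126G.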
